A study of Homo sapiens with 3 samples.

Results

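The mitochondrially encoded genes were described in 3 RNA sequencing libraries of the line QBC-939, derived from a human cancer of the bile ducts (cholangiocarcinoma). The members were all rows of the gene table on the mitochondrial chromosome whose symbol begins with MT- and a letter: 37 of 30923 genes, made up of 13 protein-coding, 2 ribosomal RNA (rRNA) and 22 transfer RNA (tRNA) genes. One library was made from wild-type cells labelled as overexpressing miR-182-5p, another from cells overexpressing miR-183-5p, and the control from cells with an overexpression treatment labelled NC. No dose, duration or mode of delivery is given, and the sample titles of both microRNA libraries end in "mim". With 1 library per group no test between conditions was possible, so all values describe these 3 libraries and the 95% intervals in parentheses cover counting error only.

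The human mitochondrial genome is a small circle present in many copies per cell. Its genes are read from both strands, called heavy and light, as long transcripts that are cut into messenger, ribosomal and transfer RNAs, mostly at the tRNAs that sit between the other genes. All of its messenger RNAs encode subunits of the respiratory chain or of ATP synthase, which are assembled together with subunits imported from nuclear genes. Polymerase, processing and translation factors for this system are all nuclear products.

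The microRNAs used as treatments are given here with their RefSeq sequences (GRCh38.p14), since their seeds, bases 2 to 8 in capitals, were searched in the members. They come from neighbouring loci on the minus strand, at chr7:129770447-129770470 for miR-182-5p and chr7:129774967-129774988 for miR-183-5p.
miR-182-5p: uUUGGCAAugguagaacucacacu
miR-183-5p: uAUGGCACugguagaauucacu
The complement of the miR-182-5p seed, TTGCCAA, was found on the sense strand of 0 of the 15 rRNA and protein-coding members, and that of the miR-183-5p seed, GTGCCAT, also of 0. On the opposite strand each was found in 1 member, TTGCCAA in MT-CO1 and GTGCCAT in MT-CO2. For comparison, windows as long as each member were taken from the start of the longest coding transcript of each nuclear gene, where that was long enough: 19678 genes at the length of MT-ATP8 and 14802 at that of MT-ND5, so the percentages rest on different sets of genes. TTGCCAA occurred in 0.899% of windows as long as MT-ATP8, the shortest of the 15, and in 15.6% of those as long as MT-ND5, the longest, and GTGCCAT in 0.894% and 10.96%. A missing match says only that these letters are not in the member.

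Summed over genes, the NC library held 64516706 counts, the miR-182-5p library 61709874 and the miR-183-5p library 67427313. The epithelial markers EPCAM, at 498.5 to 514 CPM (counts scaled to a common library total), and KRT19, at 211 to 229 CPM, were present in all 3 libraries, and KRT7 was low at 4.99 to 6.96 CPM. Among 10 markers of hepatocytes, leukocytes, endothelium, fibroblasts or red cells found in the table, none exceeded 3.84 CPM, and 9 stayed at or under 2.07 CPM; ALB had 0 to 9 counts and PTPRC 0 to 9 counts.

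Mitochondrially encoded genes took a larger share of the counts in both microRNA libraries than in the NC library. Their share was 13.5% in NC (13.47 to 13.48), 16.7% with miR-182-5p (16.74 to 16.75) and 16.1% with miR-183-5p (16.05 to 16.07). All 3 classes were higher, and the noncoding classes were higher by more. Protein-coding members went from 12.3% of counts in NC to 15.1% (miR-182-5p) and 14.5% (miR-183-5p), which is 1.229 times NC (1.228 to 1.231) and 1.179 times NC (1.178 to 1.180). The rRNA members went from 1.07% in NC to 1.47% and 1.42%, at 1.38 (1.37 to 1.38) and 1.33 (1.33 to 1.34) times NC. The tRNA members went from 0.0949% in NC to 0.136% and 0.121%, at 1.43 (1.42 to 1.45) and 1.27 (1.26 to 1.29) times NC. In bulk RNA a larger mitochondrial share, fewer other transcripts per cell and more mitochondrial RNA per cell cannot be told apart.

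**Figure D1:**
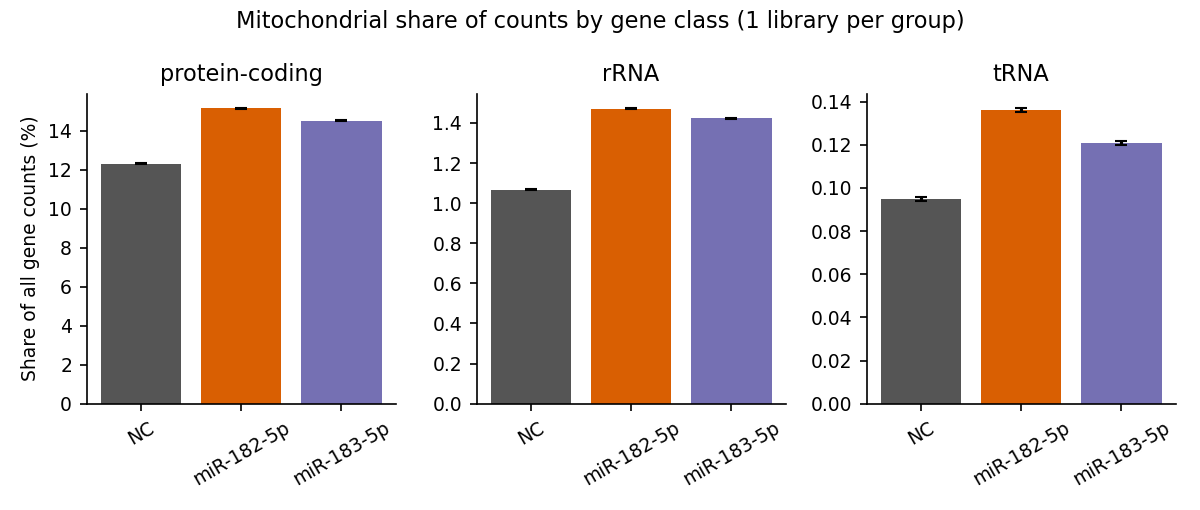
Share of all gene counts, in percent, held by the protein-coding, rRNA and tRNA genes of the mitochondrial genome. Each bar is 1 library, error bars are exact 95% binomial intervals for counting error, and the y axes start at 0 with a separate scale per panel; NC is the lowest bar in all 3 panels.

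Within the mitochondrial total the noncoding classes gained part of the share of the protein-coding class. Protein-coding members held 91.4% of mitochondrial counts in NC, 90.4% in miR-182-5p and 90.4% in miR-183-5p, rRNA members 7.91%, 8.78% and 8.86%, and tRNA members 0.704%, 0.812% and 0.753%. Relative to NC the rRNA part was 1.110 and 1.119 times as large, and the tRNA part 1.153 and 1.069 times. How rRNA was treated in library preparation is not given in the sources used here, so the level of the rRNA class against the messenger class is not read as that in the cell.

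All 37 members reached an FPKM (fragments scaled to gene length and library size) of at least 1 in all 3 libraries, so none was lost to a filter on low values. The protein-coding members were among the most abundant genes of the cell line. In each library 12 of the 20 genes with most counts were mitochondrial protein-coding genes, and MT-CO1 ranked number 1 in all 3. The deposited FPKM divides by full annotated gene length, which is only 207 bases for MT-ATP8, 297 for MT-ND4L and 346 for MT-ND3. The ranks of such short genes are not read as levels of a messenger RNA. Per length, on the deposited FPKM scale, the NC library had MT-ATP8 first at 26372, followed by MT-CO1 at 16361, MT-CO2 at 14947, MT-ATP6 at 14000 and MT-CO3 at 13979. Next came MT-ND4 at 9205, MT-ND4L at 8930, MT-CYB at 6861, MT-ND1 at 5097 and the large rRNA MT-RNR2 at 4912. The lowest of this kind were MT-ND2 at 4249, MT-ND6 at 3925, MT-ND3 at 3046, MT-ND5 at 3038 and the small rRNA MT-RNR1 at 1276. MT-ATP6 and MT-CO3 stood next to each other in NC, as did MT-ND3 and MT-ND5, and without replicates the order of such neighbours is not established. In the miR-182-5p and miR-183-5p libraries MT-CO3 stood above MT-ATP6, at 18831 against 15477 and at 17770 against 15182, and MT-ATP8 remained first at 23873 and 23645. The nuclear copy MTATP6P1 held 12.6% (NC), 13.3% (miR-182-5p) and 13.7% (miR-183-5p) of the counts of MT-ATP6 and copy together. The nuclear copy MTND2P28 held 14.6% (NC), 15.6% (miR-182-5p) and 15.3% (miR-183-5p) of the counts of MT-ND2 and copy together. The places of MT-ATP6 and MT-ND2 in this order are therefore uncertain.

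**Figure D2:**
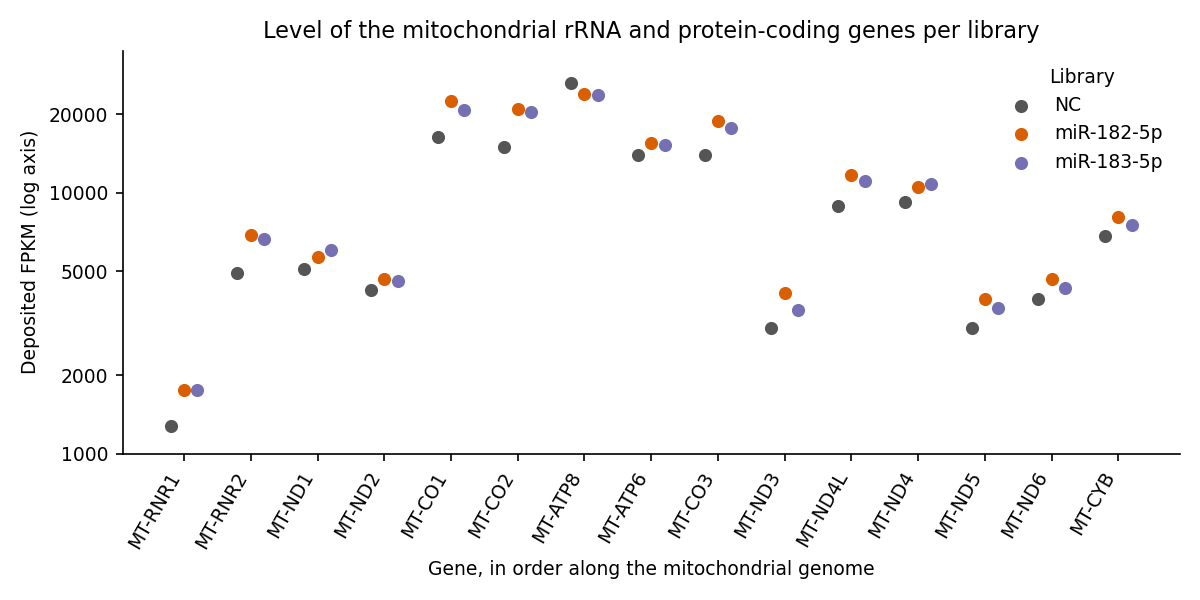
Deposited FPKM on a log axis for the 2 rRNA and 13 protein-coding genes, in order along the mitochondrial genome, 1 point per library. NC lies below both microRNA libraries for every gene except MT-ATP8, where it is the highest at 26372.

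The first comparison asked which of these genes differed between the miR-182-5p and the NC library. A gene was called different here when its CPM ratio was at least 1.2 or at most the inverse of that, a rule of size. Of the 13 protein-coding members, 6 were called higher and 0 lower, where 24.3% of the 13267 measured genes (FPKM of 1 or more in at least one of the compared libraries) were called higher and 20.5% lower. Their median log2 CPM ratio was 0.23, against -0.01 over all those genes. Of the 48 nuclear genes with at least 1000 CPM in NC, a level that all 15 rRNA and protein-coding members also reach, 6.25% were called higher and 56.2% lower, with a median of -0.31. These nuclear genes were chosen by their level in NC, the denominator of the ratio, a choice that favours ratios below 1. The members were not chosen by level, so the contrast with them is not read as a result. Of the mitochondrial protein-coding genes, 12 of 13 had ratios above 1, where the median ratio of all measured genes lay slightly below 1.

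The second comparison put the miR-183-5p library against the same NC library, so both share whatever is particular to that control. Of the 13 protein-coding members, 4 were called higher and 0 lower, against 11.5% and 11.3% of 12926 genes. The median log2 CPM ratio was 0.21, against -0.03 over all genes. Of the abundant nuclear genes, again those chosen by their level in NC, 2.08% were called higher and 2.08% lower, with a median of -0.11. The direction of all 15 rRNA and protein-coding members against NC was the same after scaling to nuclear counts alone, to median-of-ratios size factors or to TMM factors, but not to the mitochondrial total, where by construction some members lie below 1.

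**Figure D3:**
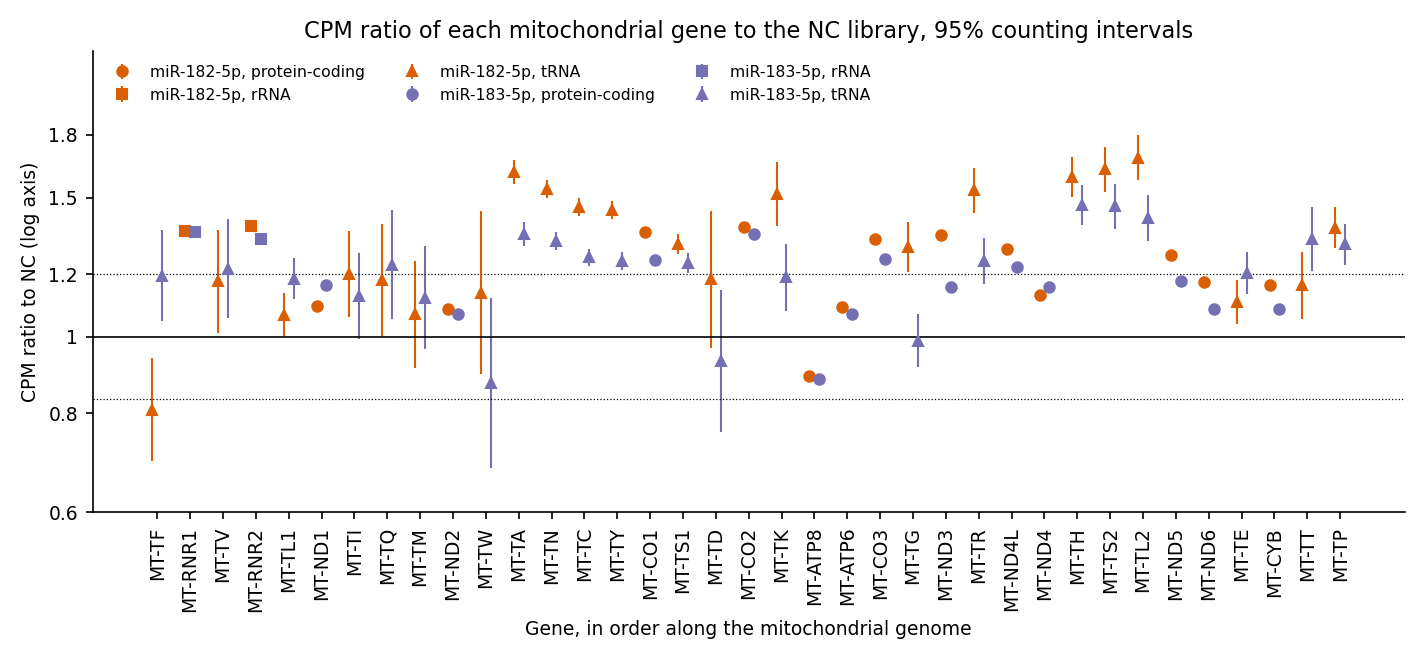
CPM ratio to the NC library, on a log axis, for all 37 mitochondrial genes in genome order, with 95% counting intervals (smaller than the symbol for abundant genes). The solid line marks no difference and the dotted lines the 1.2-fold rule; MT-ATP8 is the only protein-coding gene below 1, and MT-TL2 has the highest ratio, 1.68.

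Summed by complex, the mitochondrial genes of complex IV, cytochrome c oxidase, had the highest ratios to NC. This enzyme passes electrons to oxygen, and its 3 largest subunits, the catalytic core, are all mitochondrially encoded. Single genes of complex I came close to them. With miR-182-5p MT-ND3 was at 1.343, above MT-CO3, and with miR-183-5p MT-ND4L was at 1.226. MT-CO1 (ENSG00000198804), the subunit that holds the heme and copper site of oxygen reduction, had 30313 CPM in NC, 41166 CPM in miR-182-5p and 37916 CPM in miR-183-5p. Its ratios to NC were 1.358 (1.355 to 1.361) and 1.251 (1.248 to 1.253). MT-CO2 (ENSG00000198712), the subunit that takes up electrons from cytochrome c, had 12284 CPM in NC, 16926 CPM in miR-182-5p and 16572 CPM in miR-183-5p. It had the highest ratio of all protein-coding members in both comparisons, at 1.378 (1.374 to 1.382) and 1.349 (1.345 to 1.353). MT-CO3 (ENSG00000198938) had 13168 CPM in NC, 17491 CPM in miR-182-5p and 16498 CPM in miR-183-5p, at 1.328 (1.325 to 1.332) and 1.253 (1.249 to 1.256) times NC. In all 3 genes NC was the lowest library and miR-182-5p the highest.

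The 7 complex I members, which encode membrane subunits of NADH dehydrogenase, were all above NC but covered a wider range. MT-ND3 (ENSG00000198840) had 1266 CPM in NC, 1701 CPM in miR-182-5p and 1463 CPM in miR-183-5p, so that it was called higher at 1.34 (1.33 to 1.36) with miR-182-5p but lay at 1.155 (1.144 to 1.166) with miR-183-5p. MT-ND4L (ENSG00000212907) had 3187 CPM in NC, 4112 CPM and 3906 CPM, and was called higher in both at 1.29 and 1.23. MT-ND5 (ENSG00000198786), among the largest subunits of the membrane arm, had 6614 CPM in NC, 8393 CPM and 7779 CPM, at 1.27 and 1.18 times NC. The remaining 4 were under the 1.2-fold rule in both comparisons. MT-ND1 (ENSG00000198888) had 5854 CPM in NC, 6412 CPM in miR-182-5p and 6815 CPM in miR-183-5p. MT-ND4 (ENSG00000198886) had 15240 CPM in NC, 17225 CPM and 17623 CPM in the same order. In MT-ND1 and MT-ND4 alone among the protein-coding members the miR-183-5p library was the highest. MT-ND2 (ENSG00000198763) had the smallest ratios of complex I, 1.08 and 1.07, with 5320 CPM in NC, 5768 CPM and 5683 CPM.

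MT-ND6 (ENSG00000198695) is the one protein-coding gene read from the light strand. It had 2476 CPM in NC, 2907 CPM in miR-182-5p and 2683 CPM in miR-183-5p, with ratios of 1.17 (1.17 to 1.18) and 1.08 (1.08 to 1.09). These lie inside the range of the heavy-strand complex I genes. Whether the counting used the strand is not given in the sources used here. Without strand, MT-ND6 cannot be told apart from the heavy-strand transcript opposite to it. MT-CYB (ENSG00000198727), the only mitochondrially encoded part of complex III, had 9405 CPM in NC, 10941 CPM and 10193 CPM, and its ratios of 1.16 and 1.08 were close to those of MT-ND6.

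The 2 complex V members, membrane subunits of ATP synthase, were the nearest to NC as a pair and differed from each other in direction. MT-ATP8 (ENSG00000228253) had 6559 CPM in NC, 5855 CPM in miR-182-5p and 5796 CPM in miR-183-5p. It was the only protein-coding member below NC, at 0.893 (0.889 to 0.897) and 0.884 (0.880 to 0.888). MT-ATP6 (ENSG00000198899), which forms the proton path of the enzyme, had 11455 CPM in NC, 12487 CPM in miR-182-5p and 12242 CPM in miR-183-5p, at 1.09 (1.087 to 1.094) and 1.069 (1.065 to 1.072). Both genes are known to be translated from a single messenger RNA, in which the end of MT-ATP8 and the start of MT-ATP6 overlap by 46 bases. The shared stretch, MT:8527-8572 on the plus strand in GRCh38, is shown because reads from it belong to both genes, with the MT-ATP6 start codon and the MT-ATP8 stop codon in capitals.
MT-ATP8/MT-ATP6 overlap: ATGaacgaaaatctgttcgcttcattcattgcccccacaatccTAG
How the authors assigned reads in that stretch is not given in the sources used here. Summed over both genes the counts were 1162192 in NC, 1131863 in miR-182-5p and 1216274 in miR-183-5p, and the ratios of the sum to NC were 1.018 (1.016 to 1.021) and 1.001 (0.9988 to 1.004). MT-ATP8 took 36.4% of the counts of the pair in NC, 31.9% in miR-182-5p and 32.1% in miR-183-5p. Per length its FPKM was 1.88 times that of MT-ATP6 in NC and 1.54 and 1.56 times in the microRNA libraries, so both microRNA libraries were alike and NC stood apart.

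A similar pair, MT-ND4L and MT-ND4, also shares a messenger RNA and overlaps by 7 bases at MT:10760-10766, plus strand, GRCh38. The overlap is shown in capitals, with 10 bases on either side; it begins with the MT-ND4 start codon and ends with the MT-ND4L stop codon.
MT-ND4L/MT-ND4 overlap: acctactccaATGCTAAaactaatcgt
Here the upstream gene was the one with the higher ratio: MT-ND4L had 1.29 times NC with miR-182-5p where MT-ND4 had 1.13 (1.127 to 1.133), and 1.23 with miR-183-5p where MT-ND4 had 1.156 (1.153 to 1.159). The FPKM of MT-ND4L over that of MT-ND4 was 0.970 in NC, 1.11 in miR-182-5p and 1.03 in miR-183-5p. Summed, the pair stood at 1.158 (1.155 to 1.161) and 1.168 (1.166 to 1.171) times NC. The upstream member of the one pair was therefore lower, and that of the other pair higher, in relation to its downstream partner.

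**Figure D4:**
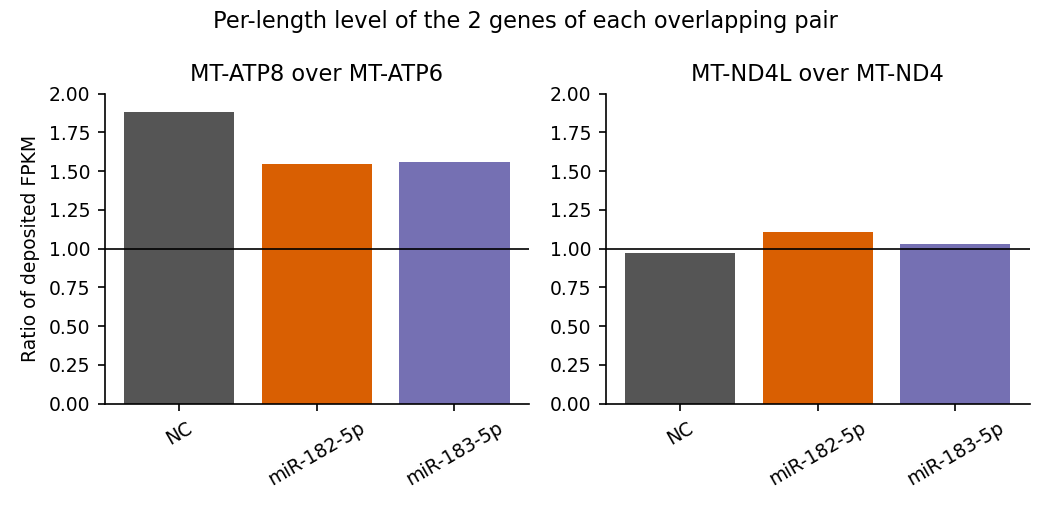
Deposited FPKM of the upstream gene divided by that of the downstream gene for the 2 overlapping pairs, 1 bar per library, with the line at equal levels. MT-ATP8 over MT-ATP6 is highest in NC (1.88), whereas MT-ND4L over MT-ND4 is lowest in NC (0.970).

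Set against the mitochondrial protein-coding total, which removes the change of the whole class, the members were unequal. Parts of a total cannot all be larger, and with at least 81699 counts per member small differences already give intervals that exclude 1. In the miR-182-5p library 6 members had a larger part of that total than in NC and 7 a smaller part, with intervals that exclude 1. The larger ones were MT-CO2 at 1.12, MT-CO1 at 1.105, MT-ND3 at 1.09, MT-CO3 at 1.08, MT-ND4L at 1.05 and MT-ND5 at 1.03. The smallest was MT-ATP8 at 0.726 (0.723 to 0.729), followed by MT-ND2 at 0.882, MT-ATP6 at 0.887 and MT-ND1 at 0.891. In the miR-183-5p library 4 members were above and 8 below, led again by MT-CO2 at 1.14 and ended by MT-ATP8 at 0.750 (0.746 to 0.753), and the interval of MT-ND5 included 1 at 0.998 (0.994 to 1.002). MT-CO1 alone held 22.5% of all mitochondrial counts in NC, 24.6% in miR-182-5p and 23.6% in miR-183-5p. Since both comparisons use the NC library, their likeness is not independent.

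Length, base composition and place on the circle were set beside the size of the difference. Across the 13 protein-coding members, which share libraries and depth, Pearson's r of the log2 CPM ratio was 0.22 with gene length and 0.14 with gene order. For miR-183-5p against NC it was 0.30 with length, -0.10 with gene order and 0.62 with GC content, where the GC value for miR-182-5p was 0.38. For miR-182-5p against miR-183-5p it was -0.09 with length, -0.33 with GC content and 0.51 with gene order (Spearman's rho 0.43). These are descriptions over 13 genes of the same libraries.

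Both rRNA members were higher against NC, with a summed ratio of 1.379 with miR-182-5p and 1.334 with miR-183-5p where the complex IV genes had 1.355 and 1.273. MT-RNR1 (ENSG00000211459), the RNA of the small mitochondrial ribosomal subunit, had 1462 CPM in NC, 1990 CPM in miR-182-5p and 1984 CPM in miR-183-5p, at 1.36 (1.35 to 1.37) and 1.36 (1.35 to 1.37) times NC. MT-RNR2 (ENSG00000210082), that of the large subunit, had 9201 CPM in NC, 12712 CPM and 12239 CPM, at 1.38 (1.38 to 1.39) and 1.33 (1.33 to 1.33). The FPKM of MT-RNR1 was 0.260 times that of MT-RNR2 in NC, 0.256 in miR-182-5p and 0.265 in miR-183-5p, so their proportion hardly differed between libraries.

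All 22 tRNA members had at least 100 counts in each library, from 127 to 14563. The tRNAs are short and can be counted from uncut precursors, so these counts are not taken as levels of mature tRNA. Of the 22, 13 were called higher and 1 lower in the miR-182-5p library, where 24.3% of all measured genes were called higher and 20.5% lower. In the miR-183-5p library 14 were called higher and 0 lower, against 11.5% and 11.3% of all genes. Counting intervals excluded 1 on the higher side for 18 and 17 of them. The share of all measured genes with such intervals is not given here, so these counts have no background and are not read further. Ratios to NC ran from 0.809 to 1.68 with miR-182-5p and from 0.874 to 1.47 with miR-183-5p.

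A block of 3 heavy-strand tRNA genes that directly follow MT-ND4, MT-TH, MT-TS2 and MT-TL2, for histidine, serine and leucine, had a higher summed ratio than the other tRNA groups summed here; this block and the cluster around MT-TA were singled out after their values were seen. Their sequences abut with no base between them and are shown 5′ to 3′ from GENCODE release 29 (GRCh38, plus strand), at MT:12138-12206, MT:12207-12265 and MT:12266-12336, with the anticodon in capitals.
MT-TH: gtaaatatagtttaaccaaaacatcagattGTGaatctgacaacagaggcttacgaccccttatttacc
MT-TS2: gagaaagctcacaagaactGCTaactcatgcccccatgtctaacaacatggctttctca
MT-TL2: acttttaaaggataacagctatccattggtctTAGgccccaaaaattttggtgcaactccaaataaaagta
MT-TH had 29.5 CPM in NC, 47.0 CPM in miR-182-5p and 43.2 CPM in miR-183-5p. MT-TS2 had 23.7 CPM, 38.5 CPM and 34.6 CPM, and MT-TL2 23.0 CPM, 38.8 CPM and 32.5 CPM in the same order. Summed, the block stood at 1.63 (1.57 to 1.69) times NC with miR-182-5p and 1.45 (1.40 to 1.503) with miR-183-5p. The genes on either side were nearer to NC in both comparisons, MT-ND4 at 1.13 and 1.16 and MT-ND5 at 1.27 and 1.18.

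The 8 light-strand tRNA genes carried most tRNA counts, 48051 of 61227 in NC. The cluster MT-TA, MT-TN, MT-TC and MT-TY, for alanine, asparagine, cysteine and tyrosine, lies between MT-ND2 and MT-CO1 around the origin of light-strand replication. Its deposited FPKM in NC ran from 970.5 for MT-TA to 2057 for MT-TY, and MT-TS1, the light-strand serine tRNA just after MT-CO1, had 1528. The heavy-strand tRNAs ran from 26.2 for MT-TW to 355 for MT-TH in NC. The remaining light-strand tRNAs lay in or next to that range in NC, with MT-TQ at 50.7, MT-TE at 341 and MT-TP at 359. The higher level was thus that of the cluster and MT-TS1, not of the light strand as a whole. MT-TA had 80.5 CPM in NC, 130.0 CPM in miR-182-5p and 108 CPM in miR-183-5p, at 1.62 (1.56 to 1.67) and 1.35 (1.30 to 1.40) times NC. Summed, the 4 genes of the cluster were at 1.4997 (1.48 to 1.52) and 1.29 (1.27 to 1.30) times NC. MT-TS1 was at 1.31 (1.27 to 1.35) and 1.24 (1.21 to 1.28), near the ratios of MT-CO1, and its FPKM was 0.0934 times that of MT-CO1 in NC, 0.0900 in miR-182-5p and 0.0926 in miR-183-5p. Whether the counting used the strand is not given in the sources used here, and without strand a light-strand tRNA cannot be told apart from the heavy-strand transcript that runs opposite to it.

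Of the other light-strand tRNAs, MT-TP (proline) was at 1.37 and 1.31 times NC, MT-TQ (glutamine) at 1.18 and 1.23, and MT-TE (glutamate) at 1.11 and 1.204. On the heavy strand MT-TR (arginine) was at 1.53 (1.44 to 1.64) and 1.25, MT-TK (lysine) at 1.52 (1.38 to 1.67) and 1.19, and MT-TG (glycine) at 1.30 and 0.989. MT-TT (threonine) was at 1.16 and 1.33, MT-TL1 (leucine) at 1.07 and 1.18, MT-TI (isoleucine) at 1.201 and 1.13, and MT-TV (valine) at 1.18 and 1.22. MT-TM (methionine) was at 1.07 and 1.12, MT-TD (aspartate) at 1.18 and 0.932, and MT-TW (tryptophan) at 1.14 and 0.874; the intervals of these 3 genes included 1 in both comparisons. MT-TF (phenylalanine), the first gene of the heavy-strand transcript, had 6.29 CPM in NC, 5.09 CPM in miR-182-5p and 7.52 CPM in miR-183-5p. Against NC it was the only member called lower, at 0.809 (0.696 to 0.939) with miR-182-5p, although the rRNA gene that follows it, MT-RNR1, was higher in that library.

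In the third comparison the 2 microRNA libraries were set against each other, which does not involve NC. No protein-coding member was called in either direction, where 18.4% of 13308 genes were called higher in miR-182-5p and 9.7% lower. The abundant nuclear genes had 0% higher and 18.8% lower, with a median of -0.16, while the protein-coding members had a median of 0.07 and all genes 0.02. The highest ratios of miR-182-5p to miR-183-5p were those of MT-ND3 at 1.16 (1.15 to 1.17) and MT-CO1 at 1.09 (1.08 to 1.09), and the lowest those of MT-ND1 at 0.941 (0.937 to 0.945) and MT-ND4 at 0.977 (0.975 to 0.980). Directions here depended on the scaling: with median-of-ratios or TMM factors MT-RNR1, MT-RNR2, MT-ND2, MT-CO2, MT-ATP8 and MT-ATP6 passed from above 1 to below 1. The tRNA members gave 5 called higher and 1 lower, from MT-TG at 1.31 (1.22 to 1.41) to MT-TF at 0.677 (0.586 to 0.781), and the others called higher were MT-TW, MT-TK, MT-TD and MT-TR.

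Nuclear copies of mitochondrial genes can share reads with the members. The table held 80 such copies named after a mitochondrial rRNA or protein-coding gene, with 205845 counts in NC, 230288 in miR-182-5p and 247923 in miR-183-5p, or 0.319%, 0.373% and 0.368% of all counts. The 3 copies with most counts, all within chr1:629640-634376, held 98.1%, 98.1% and 98.3% of these. MTATP6P1 is identical to MT-ATP6 at 671 of 681 aligned bases, MTND2P28 to MT-ND2 at 1025 of 1042 and MTCO1P12 to MT-CO1 at 1522 of 1542. They had 106748, 58709 and 36405 counts in NC. MTATP6P1 was at 1.15 (1.15 to 1.16) times NC with miR-182-5p and at 1.17 (1.17 to 1.18) with miR-183-5p, MTND2P28 at 1.17 and 1.13, and MTCO1P12 at 1.22 and 1.14. Added to the parent gene they moved its ratio little: MT-ATP6 with its copy was at 1.098 and 1.08, MT-ND2 at 1.097 and 1.08, and MT-CO1 at 1.36 and 1.25. How reads that match both places were assigned is not given in the sources used here, so these genes are uncertain to that extent.

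Nuclear genes for subunits of the same complexes differed from NC the other way in their medians. Of 72 nuclear subunits of complexes I, III, IV and V, all measured, 30 were called lower and 3 higher, against the 20.5% and 24.3% of all genes above, and their median log2 CPM ratio was -0.23. In the miR-183-5p library 6 were called lower and 2 higher, with a median of -0.11, against 11.3% and 11.5% of all genes, so neither count exceeded the background. The median by complex in the miR-182-5p library was -0.21 for complex I, -0.33 for complex III, -0.07 for complex IV and -0.31 for complex V. Complex IV, whose mitochondrial genes had the highest summed ratio of the 4 complexes, although MT-ND3 of complex I at 1.343 exceeded MT-CO3 at 1.328, had the nuclear median nearest to 0, and in the miR-183-5p library its nuclear median was 0.02. These lists were compared by count and median alone, and the difference between the genomes was not tested.

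Single nuclear subunits differed as follows. The heme protein CYC1 of complex III had 97.8 CPM in NC, 66.4 CPM in miR-182-5p and 81.6 CPM in miR-183-5p, at 0.679 (0.652 to 0.706) and 0.834 times NC. With miR-182-5p the lowest of complex I were NDUFV2 at 0.702, NDUFS6 at 0.709 and NDUFA13 at 0.722, the next of complex III UQCR11 at 0.713 and UQCR10 at 0.747, and the lowest of complex V ATP5PF at 0.702, ATP5F1D at 0.733 and ATP5MC1 at 0.757. Higher were NDUFV3 at 1.48 (1.34 to 1.62) and NDUFB8 at 1.23 in complex I and COX6A1, a small subunit of complex IV, at 1.27 (1.24 to 1.30). With miR-183-5p the genes called lower were led by NDUFA7 at 0.420 (0.375 to 0.469), NDUFA13 at 0.782 and NDUFS6 at 0.788, with UQCR11 at 0.814 and ATP5ME at 0.815 in the other complexes, and NDUFV3 at 1.52 and NDUFB8 at 1.30 were called higher. Between the microRNA libraries 1 of the 72 was called higher in miR-182-5p and 5 lower, with a median of -0.13, both counts under the background of 18.4% and 9.7%; NDUFA7 was at 2.06 (1.83 to 2.31), NDUFB11 at 0.730 and ATP5MC1 at 0.780. Of these, NDUFA13, NDUFB8 and NDUFA7 overlap another gene on the same strand, and NDUFV2, UQCR10, ATP5PF, ATP5MC1 and ATP5ME one on the opposite strand, so their reads are less certain.

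**Figure D5:**
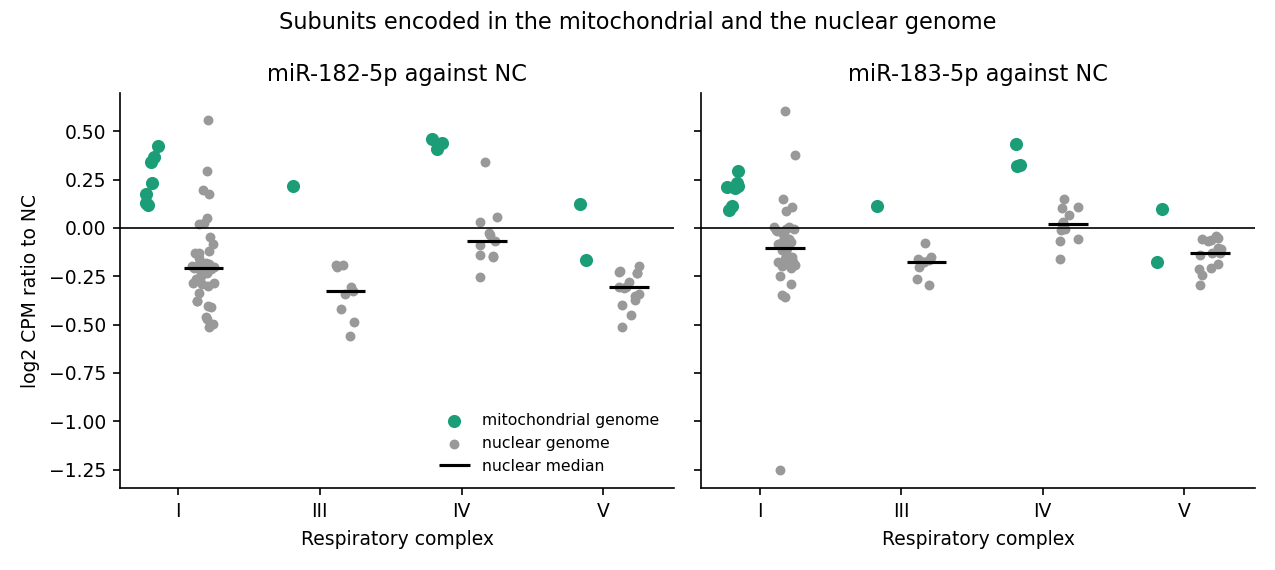
Log2 CPM ratio to NC of the respiratory complex subunits encoded in the mitochondrial genome (green) and in the nuclear genome (grey, with the median as a bar), 1 point per gene, by complex. In the miR-182-5p panel the nuclear medians lie between -0.33 and -0.07, and every mitochondrial gene but MT-ATP8 lies above 0.

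Nuclear genes that act on mitochondrial DNA and RNA were not higher as a list. Of 51 measured genes of mitochondrial transcription, RNA processing, DNA replication and biogenesis control, 1 was called higher and 18 lower in the miR-182-5p library, with a median of -0.19, against 24.3% of all genes higher and 20.5% lower. Of those called lower, 13 were RNA processing genes. The other lists gave 2 of 9 (transcription), 2 of 12 (DNA replication) and 1 of 8 (biogenesis control), near or under the background. In the miR-183-5p library 1 was called higher and 6 lower, with a median of -0.08, against 11.5% and 11.3% of all genes, so the lower count was near the background. In the transcription list TFAM, which packages mitochondrial DNA and starts transcription, had 115 CPM in NC, 96.4 CPM in miR-182-5p and 109 CPM in miR-183-5p, and the polymerase POLRMT had 60.1 CPM, 58.7 CPM and 59.1 CPM. The transcription factor TFB2M was at 0.740 (0.696 to 0.787) and 0.894 times NC, and the rRNA methyltransferase TFB1M at 0.625 (0.558 to 0.700) and 0.735.

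RNA processing genes were the most shifted of these lists with miR-182-5p, with 13 of 22 called lower and 0 higher, against 20.5% and 24.3% of all genes, and a median of -0.28. The nuclease subunit PRORP, which cuts the 5′ ends of mitochondrial tRNAs, was at 0.581 (0.541 to 0.623) with miR-182-5p and 0.696 with miR-183-5p. The rRNA methyltransferase MRM2 was at 0.647 and 0.826, and SLIRP, which with LRPPRC stabilises mitochondrial messenger RNAs, at 0.658 (0.610 to 0.709) and 0.808. LRPPRC itself had 243 CPM in NC, 228 CPM and 247 CPM. NSUN4, an rRNA methyltransferase, was at 0.999 with miR-182-5p and at 0.668 (0.624 to 0.714) with miR-183-5p. Among DNA replication genes TOP1MT at 0.751 and SSBP1 at 0.798 were called lower with miR-182-5p and the kinase DGUOK at 0.761 with miR-183-5p. The coactivator PPARGC1B was the gene called higher in both, at 1.31 (1.19 to 1.43) and 1.25 (1.14 to 1.37), from 12.65 CPM in NC to 16.5 CPM and 15.8 CPM. Its FPKM was 0.814 in NC, 1.08 in miR-182-5p and 1.03 in miR-183-5p. It therefore counted as measured only through the libraries where it was higher, a filter that favours such a call, so the call is not read as a result. The transcription factor subunit gene GABPB1 was at 0.827 with miR-182-5p. Between the microRNA libraries 2 of the 51 were called higher in miR-182-5p, NSUN4 at 1.496 (1.398 to 1.602) and POLG2 at 1.21, and 6 lower, against 18.4% and 9.7% of all genes, so the lower count was near the background. TFB1M, PRORP, MRM2, SSBP1 and GABPB1 overlap another gene on the same strand, and SLIRP and DGUOK one on the opposite strand.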

How the data were processed

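RNA sequencing was done on total RNA of QBC-939 cells, 1 library per group. The gene counts were deposited by the authors as whole numbers per gene, and the FPKM values were deposited beside them, per the file headers. The submitters' processing notes name cutadapt 1.9 and FastQC and give the build GRCm38, a mouse assembly, but all 37 members have the coordinates and strand of GENCODE release 29 on human GRCh38. For the aligner, the counting program and strand handling the entry is: not given in the sources used here. For the members the deposited FPKM equals the count divided by the full annotated gene length and by 1 constant per library, to within 1% of its median. CPM, ratios with exact Clopper-Pearson 95% intervals (given the summed counts of the compared libraries) and shares were computed in Python 3.11.15 with scipy 1.17.1. TMM factors came from edgeR 4.0.16, with no test. The interval procedure was run on simulated counts with counting error alone, the error that it assumes. That simulation therefore says nothing about variation between cultures. Depth was 61709874 to 67427313 counts. Rule for names: every rRNA and protein-coding member, tRNAs with at least 100 counts, up to 3 members per direction past 1.2-fold of each list of nuclear genes for mitochondrial functions, and the 3 nuclear copies with most counts; TFAM, POLRMT and LRPPRC, and the cell markers named from the marker lists, which this rule does not cover, were chosen after their values were seen. Members and lists were chosen with earlier results of these data known.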

Additional observations from a re-analysis of the deposited data

How the results depend on the processing

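With 1 library per group, depth limits little for these abundant genes, but variation between cultures is not measured and no paired analysis was possible because no group has a replicate. The median log2 CPM ratio of the protein-coding members was 0.23 (miR-182-5p against NC), 0.21 (miR-183-5p against NC) and 0.07 (miR-182-5p against miR-183-5p). In that order it became 0.29, 0.25 and 0.086 with nuclear counts as the total, 0.17, 0.22 and 0.0056 with median-of-ratios factors, 0.17, 0.22 and 0.0042 with TMM factors, and 0.34, 0.22 and 0.10 without the 4 overlapping genes. With deposited FPKM it was 0.25 and 0.23 against NC for a pseudocount of 1 and for 0.1. At a fold of 1.5 the members called higher against NC became 0 in both comparisons. At 1.1 they became 9 and 8, with 1 lower in each, MT-ATP8, and 1 became higher between the microRNA libraries. The share of all genes past 1.1 or 1.5 is not given here, so these counts have no background and are not read further. The mitochondrial share was 15.1%, 14.5% and 12.3% (miR-182-5p, miR-183-5p, NC) for protein-coding members alone and 15.5%, 14.8% and 12.5% without rRNA. The percent of all genes called higher and lower was 40.9 and 25.3 (miR-182-5p against NC), 30.4 and 24.1 (miR-183-5p against NC) and 35.1 and 22.3 (between microRNAs) with any gene of at least 1 count, and 26.3 and 19.0, 13.2 and 11.4, and 20.5 and 9.33 with at least 50 counts in both libraries. The cause of these shifts was not tested.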
